A study of Homo sapiens with 6 samples.

Results

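Ferroptosis defence and iron genes were a set of 10 genes chosen by name, AIFM2, GPX4, SLC7A11, SLC3A2, ACSL4, FTH1, FTL, TFRC, NQO1 and HMOX1, of the 58302 genes in the RIP-seq table. All 10 were found by symbol and all 10 had an Input level of at least 1 FPKM (fragments per kilobase, a level corrected for gene length and library size) in both cell lines, as did 12324 genes in all. RNA from 2 colorectal cancer (CRC) cell lines of epithelial origin, SW480 and DLD-1, was sequenced as Input (total RNA), as RNA pulled down together with NAT10, an acetyltransferase, by an antibody to that protein (RIP), and as RNA pulled down with an antibody against N4-acetylcytidine (ac4C, acRIP). The labels give every group as WT and untreated, in DMEM with serum, where WT speaks of no engineered change: the study's text describes both lines as p53 mutant. Each of the 6 groups held 1 library. With no replicates there was no test and no p-value between groups, and each difference below compares single libraries of bulk RNA, in which fewer expressing cells and less RNA per cell cannot be told apart.

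Ferroptosis is a form of cell death driven by iron-dependent peroxidation of membrane lipids. Cells hold it back by importing cystine for glutathione, which the peroxidase GPX4 uses to reduce lipid hydroperoxides, and by a parallel route in which AIFM2 (also called FSP1) regenerates the reduced form of coenzyme Q. Iron taken up through the transferrin receptor feeds the peroxidation, and iron stored in ferritin is kept out of it. NAT10 is the enzyme that writes ac4C on RNA, and the libraries were made to find the RNAs that it binds and those that carry the mark in CRC cells.

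Libraries are called by their labels (RIP SW480, Input SW480 and so on), and the labels of RIP and Input did not pair, which bears on every RIP/Input ratio given here. Across 16196 protein-coding genes, which are not independent, RIP SW480 had a Pearson r of 0.944 to Input DLD-1 but 0.871 to Input SW480, and RIP DLD-1 had 0.951 to Input SW480 but 0.856 to Input DLD-1. KRT20, a keratin of colonic epithelium, was at 29.2 FPKM in Input SW480 and at 23.9 FPKM in RIP DLD-1, but at 0.0426 FPKM in Input DLD-1 and at 0 in RIP SW480. The groups were kept as labelled, and each ratio to the Input of the same label is given beside the crossed ratio, which takes RIP SW480 over Input DLD-1 and RIP DLD-1 over Input SW480. Of the 10 epithelial markers examined, 7 or 8 reached 1 FPKM in each library, and of the 10 markers of other cell types none did. The RIP table held at least 12125181 to 27388958 reads per library. The counting errors given below rest on those reads and do not cover the spread between cultures.

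Short stretches of the RefSeq reference (GRCh38.p14) at the start of 3 genes are shown first, because they hold letters that belong to well-known controls of iron and oxidative stress genes. They come from windows of 250 bases before to 50 bases after a start site, which were present for 7 of the 10 genes. SLC7A11, FTH1 and HMOX1 had no window. The capitals mark the letters searched. The first pair holds CAGTGN, the loop letters of an iron-responsive element, searched on the transcribed strand within the transcribed bases, where 6.36% of 35116 windows held it.
FTL, chr19:48965337-48965358, plus strand: cttgcttcaaCAGTGTttggac
SLC3A2, chr11:62856123-62856148, plus strand: ttttctcaccCAGTGCatgtggcagg
The second pair holds TGACNNNGC, the core of the antioxidant response element at which the transcription factor NRF2 is known to act, searched on both strands of the whole window, where 13.3% of windows held it.
AIFM2, chr10:70132829-70132857, plus strand, for a gene on the minus strand: gggcggggcgTGACTCAGCactcgtgctg
SLC3A2, chr11:62881652-62881680, plus strand: cgagggtgggTGACTCAGCgtcctccttc
The FTL match started 39 bases into the transcript, in the 5′ part of a gene whose mRNA is a textbook target of the iron regulatory proteins. The SLC3A2 match to the same letters started at base 25 of 1 of its 3 windows. The AIFM2 and SLC3A2 matches to the second pattern began 22 and 37 bases upstream of their start sites. These matches are descriptions of the reference and not of binding, and the absence of a match in the other windows says only that the letters were not in those windows. In both matches to the second pattern the letters also hold TGACTCA, the pattern of the factor AP-1, and no stretch held both patterns searched.

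Levels of the 10 genes in the Inputs ran from 4.66 FPKM for ACSL4 in SW480 to 5165 FPKM for FTL in DLD-1, per length. Ferritin stood at the top of the protein-coding genes. FTL was the single most abundant protein-coding gene in RIP SW480 and ranked 28 in Input SW480, 15 in RIP DLD-1 and 7 in Input DLD-1. FTH1 ranked 6, 14, 10 and 10 in the same order. Together, FTH1 and FTL made up 4.64% of the summed protein-coding FPKM in RIP SW480, 0.676% in Input SW480, 1.46% in RIP DLD-1 and 2.77% in Input DLD-1.

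**Figure D1:**
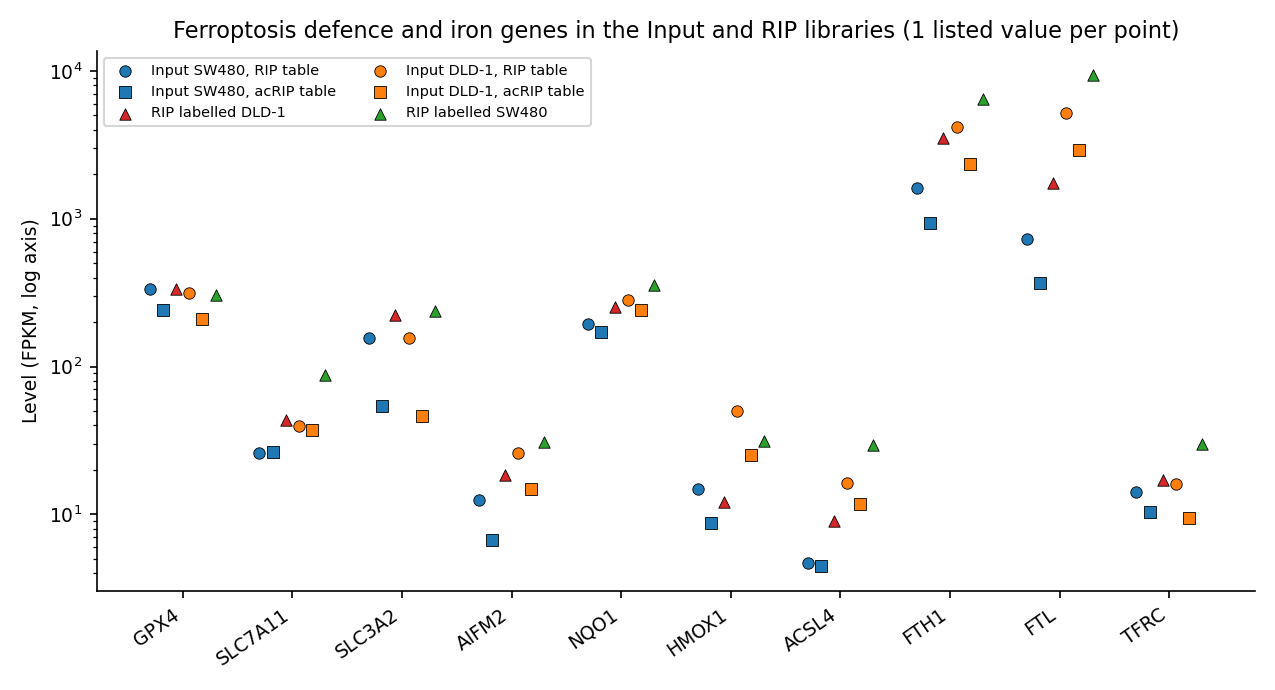
Levels in FPKM on a log axis for the 10 genes in the 4 columns of the RIP table (circles and triangles) and in the Inputs of the acRIP table (squares), with 1 point per listed value and no error bars because each group held 1 library. For FTL the Input DLD-1 (5165 FPKM) and RIP SW480 (9340.2 FPKM) lie above the Input SW480 (729.8 FPKM) and RIP DLD-1 (1745 FPKM), whereas for GPX4 all 4 lie between 307 and 335 FPKM.

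The cystine and glutathione arm of the defence was taken first. GPX4, the peroxidase that reduces lipid hydroperoxides in membranes (ENSG00000167468, chr19:1103994-1106779), was at 307 FPKM in RIP SW480, 335 in Input SW480, 335 in RIP DLD-1 and 316 in Input DLD-1. It was the flattest of the 10 genes. Its log2((RIP + 1)/(Input + 1)), the ratio used throughout, was -0.13 with a counting standard error (SE) of 0.023 in SW480 and 0.08 with an SE of 0.025 in DLD-1. The crossed linear ratios were 0.970 and 0.998.

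SLC7A11, the light chain of the cystine/glutamate exchanger (ENSG00000151012, chr4:138164097-138242349), was at 88.1 FPKM in RIP SW480, 26.2 in Input SW480, 43.4 in RIP DLD-1 and 39.8 in Input DLD-1. Both RIP libraries therefore lay above both Inputs. In SW480 the log2 ratio was 1.71 (SE 0.025), or 3.28-fold, and in DLD-1 0.12 (SE 0.024). The crossed ratios were 1.13 and 0.71, so that SLC7A11 lay above Input under either pairing of this table, but over the acRIP-table Input of the same label the ratio in DLD-1 was -0.38. The antisense gene SLC7A11-AS1 was at 4.25 and 3.42 FPKM in the Inputs and at 0 in both RIP libraries. Whether counting used strand is not stated, so reads of SLC7A11 and its antisense partner cannot be told apart.

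SLC3A2, the heavy chain that carries SLC7A11 and other amino acid transporters to the membrane (ENSG00000168003, chr11:62856109-62888860), was at 237 FPKM in RIP SW480, 156 in Input SW480, 222 in RIP DLD-1 and 157 in Input DLD-1. Both RIP libraries lay above both Inputs. Because the Inputs were nearly equal, the choice of Input label hardly mattered, and the log2 ratios were 0.60 (SE 0.023) and 0.50 (SE 0.025) as labelled and 0.59 and 0.50 when crossed. The level depended on the table from which the Input was read. The Inputs of the acRIP table gave 54.2 FPKM in SW480 and 46.6 in DLD-1, and after both tables were scaled to the same median the RIP-table Input was still 1.95- and 2.22-fold higher. Between the tables, 7.52% of protein-coding genes in SW480 and 7.97% in DLD-1 were at least 2-fold apart after the same scaling. The ratio of the light to the heavy chain was thus 0.168 and 0.253 in the RIP-table Inputs of SW480 and DLD-1 but 0.491 and 0.80 in the acRIP-table Inputs. The values given for SLC3A2 are therefore tied to the table from which the Input was taken.

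The coenzyme Q arm and the stress-induced oxidoreductases followed. AIFM2 (ENSG00000042286, chr10:70112271-70132825), the coenzyme Q reductase, was at 31.0 FPKM in RIP SW480, 12.5 in Input SW480, 18.4 in RIP DLD-1 and 26.2 in Input DLD-1. The order of the 2 lines in RIP was the reverse of that in Input. The log2 ratio was 1.24 (SE 0.060), or 2.36-fold, in SW480 and -0.49 (SE 0.054) in DLD-1, and the crossed ratios were 0.23 and 0.52.

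NQO1, a quinone reductase under NRF2 control (ENSG00000181019, chr16:69709401-69726560), was at 355 FPKM in RIP SW480, 193 in Input SW480, 253 in RIP DLD-1 and 283 in Input DLD-1. Its log2 ratios were 0.88 (SE 0.018) and -0.16 (SE 0.017) as labelled. When crossed they were 0.33 and 0.39. NQO1 was well below FTH1 and FTL per length but above the other defence genes in RIP SW480.

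HMOX1, which breaks down haem and releases its iron (ENSG00000100292, chr22:35381096-35394207), was at 31.4 FPKM in RIP SW480, 14.8 in Input SW480, 12.1 in RIP DLD-1 and 50 in Input DLD-1. It was the single gene of the 10 with a level in Input DLD-1 above all 3 other RIP-table libraries. The log2 ratio was 1.04 (SE 0.076), or 2.06-fold, in SW480 and -1.96 (SE 0.070), a level 3.90-fold below Input, in DLD-1. Both crossed ratios were below 0, at -0.65 (SE 0.053) and -0.27 (SE 0.089). By the RIP-table Inputs HMOX1 was thus the only gene of the set besides GPX4 for which neither crossed ratio exceeded 1-fold. Over the crossed Inputs of the acRIP table NQO1 was also just below 0, at -0.01 and -0.04.

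ACSL4 was the lipid enzyme of the set that favours ferroptosis, since it activates the polyunsaturated fatty acids that are peroxidised. ACSL4 (ENSG00000068366, chrX:109641335-109733257) was at 29.7 FPKM in RIP SW480, 4.66 in Input SW480, 9.0 in RIP DLD-1 and 16.4 in Input DLD-1. The lowest value rested on 363 reads, the fewest of any value in the set. The log2 ratio was 2.44 (SE 0.066), or 5.42-fold, in SW480 and -0.80 (SE 0.054) in DLD-1, and the crossed ratios were 0.81 (SE 0.044) and 0.82 (SE 0.073). As labelled, then, ACSL4 lay on opposite sides of Input in the 2 lines, whereas these crossed ratios were alike within counting error. Over the crossed Inputs of the acRIP table they were 0.75 and 0.36.

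The genes of iron storage and uptake came last. FTL, the ferritin light chain (ENSG00000087086, chr19:48965309-48966879), whose start holds the CAGTGT loop letters shown above, was at 9340.2 FPKM in RIP SW480, 729.8 in Input SW480, 1745 in RIP DLD-1 and 5165 in Input DLD-1. The 2 high values came from libraries of opposite labels. RIP over Input had a log2 ratio of 3.68 (SE 0.015), or 12.8-fold, in SW480 and -1.56 (SE 0.009), a level 2.96-fold below Input, in DLD-1. The crossed ratios were 0.85 and 1.26, above Input in both lines.

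FTH1, the ferritin heavy chain, which oxidises iron for storage (ENSG00000167996, chr11:61964285-61967634), was at 6431 FPKM in RIP SW480, 1616 in Input SW480, 3543 in RIP DLD-1 and 4179 in Input DLD-1. It followed FTL in order and with a smaller span. The log2 ratio was 1.99 (SE 0.013), or 3.98-fold, in SW480 and -0.24 (SE 0.010) in DLD-1, and 0.62 and 1.13 when crossed. The table also lists 25 pseudogene copies of FTH1, of which 15 were above 0, and their summed FPKM was 3.11% of FTH1 in RIP SW480, 19.4% in Input SW480, 5.76% in RIP DLD-1 and 11.9% in Input DLD-1. In the acRIP-table Inputs the share was 5.23% in SW480 and 2.17% in DLD-1, so it differed between the tables as well as between libraries. The level of FTH1 is uncertain by an amount that these shares, being per length, do not measure. How reads were divided between FTH1 and its copies was not examined. For FTL, 16 copies summed to between 0.282% and 2.99% of the parent gene in the RIP table.

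The balance of the 2 ferritin chains differed between libraries. FTL over FTH1 was 1.45 in RIP SW480 and 1.24 in Input DLD-1, against 0.452 in Input SW480 and 0.492 in RIP DLD-1. The acRIP-table Inputs, assigned to the same Input sample of each line, gave 0.391 for SW480 and 1.23 for DLD-1. FTL thus exceeded FTH1 in Input DLD-1 and not in Input SW480 by both Input columns, which are not replicates. By the RIP labels the order was the reverse.

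TFRC, the transferrin receptor through which cells take up iron (ENSG00000072274, chr3:196049284-196082090), was at 30 FPKM in RIP SW480, 14.2 in Input SW480, 17.1 in RIP DLD-1 and 16.1 in Input DLD-1. RIP SW480 lay apart from the other 3 libraries, which were close together. Its log2 ratio was 1.03 (SE 0.046), or 2.04-fold, in SW480 and 0.08 (SE 0.050) in DLD-1, and 0.86 and 0.25 when crossed. TFRC differed from the ferritin genes in that its Inputs were nearly equal between lines.

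As a set, 7 of the 10 genes were at least 2-fold above Input in SW480 as labelled, where 15.6% of the 12324 genes were, and 0 of the 10 were at least 2-fold below, where 16.0% were. The 7 were ACSL4, AIFM2, FTH1, FTL, HMOX1, SLC7A11 and TFRC, and the median log2 ratio of all 10 was 1.14, beside 0.05 over all genes. TFRC and HMOX1 were just past 2-fold and lay at 0.85 and 0.86 after the median of protein-coding genes (0.18) was subtracted. In DLD-1, 0 of the 10 were at least 2-fold above Input, against 15.1% of all genes, and 2, FTL and HMOX1, were at least 2-fold below, against 19.2%. The median there was -0.20, beside -0.05 over all genes. None of the 10 was at least 2-fold above Input in both lines, as 3.55% of all genes were, or below in both, as 7.29% were.

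The counts were different when the Inputs were crossed. In RIP SW480 only SLC7A11 was then at least 2-fold above (2.19-fold), against 9.24% of all genes. In RIP DLD-1 it was FTL and FTH1 (2.39- and 2.19-fold), against 9.36%. The medians of the 10 genes were 0.60 and 0.51, beside 0.02 and 0 over all genes. The signs of the ratio in the 2 lines were opposite for 7 of the 10 genes as labelled, where 43.6% of all genes were, and for 0 of the 10 when crossed, where 18.3% were. The acRIP-table Inputs, scaled to the same median, gave 7 genes at least 2-fold above in RIP SW480 (18.3% of all genes) and 0 below (14.4%) by the same label, and 1 above (17.7%) and 2 below (17%) in RIP DLD-1. Crossed, they gave 3 above (12.8%) and 0 below (9.64%) in RIP SW480 and 3 above (11.2%) and 0 below (10.9%) in RIP DLD-1. At 2-fold below, the crossed RIP-table Inputs gave 0 of the 10 in either library, where 11.7% and 11.8% of all genes were. SLC3A2 and TFRC were the genes whose ratio was above 0 in both lines with each of the 4 Inputs.

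**Figure D2:**
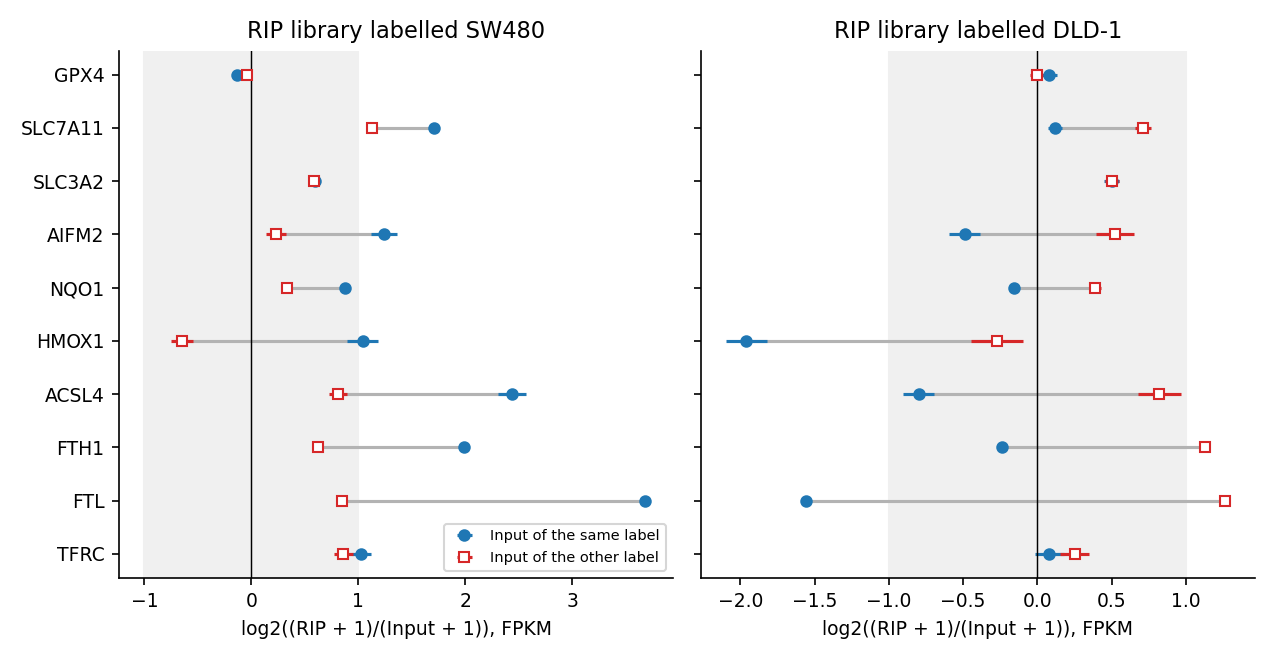
Log2((RIP + 1)/(Input + 1)) of FPKM for each gene in RIP SW480 (left) and DLD-1 (right), over the Input of the same label (filled circles) and of the other label (open squares), with bars for 95% counting intervals and a grey band up to 2-fold either way. For FTL the ratio moved from 3.68 to 0.85 on the left and from -1.56 to 1.26 on the right, whereas SLC3A2 and GPX4 moved little.

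Next, the 2 lines were compared within each kind of library. In the Inputs, 5 of the 10 genes were at least 2-fold higher in DLD-1 (9.29% of all genes) and 0 were at least 2-fold higher in SW480 (7.25%). FTL was 7.07-fold higher, HMOX1 3.23-fold, ACSL4 3.08-fold, FTH1 2.59-fold and AIFM2 2.01-fold. The same 5 genes were at least 2-fold higher in DLD-1 by the acRIP-table Inputs (9.6% of all genes), at 7.91-, 2.73-, 2.33-, 2.53- and 2.05-fold in the same order, and 0 were at least 2-fold higher in SW480 (9.52%). For GPX4, SLC3A2 and TFRC the Inputs of the 2 lines lay within 1.16-fold of each other in both tables.

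In the RIP libraries the order was the other way round. FTL was 5.35-fold, ACSL4 3.07-fold, HMOX1 2.48-fold and SLC7A11 2.01-fold higher in RIP SW480, which made 4 of the 10 genes at least 2-fold higher there (7.60% of all genes), and 0 were at least 2-fold higher in RIP DLD-1 (6.17%). SLC7A11 here and AIFM2 in the Inputs were at the edge, and after the median of protein-coding genes was subtracted their log2 differences were 0.96 and -0.98, short of 2-fold, which left 3 and 4 genes. By the RIP-table Inputs all 10 genes differed between labels in opposite directions in Input and in RIP. For GPX4 and SLC3A2 these differences were under 0.13 on the log2 scale. Of all genes, 74.0% had opposite directions. By the acRIP-table Inputs SLC3A2 (0.21) and TFRC (0.13) were higher in SW480, as they were in RIP (0.09 and 0.78). At least 2-fold in both and in opposite directions were ACSL4, FTL and HMOX1, 3 of the 10, against 8.75% of all genes. For these genes, as for most genes in the table, the order of the 2 labels thus differed between Input and RIP. The labels of RIP and Input did not pair, as given above. Whether the reversal came from the labels or from the kind of library was not tested.

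**Figure D3:**
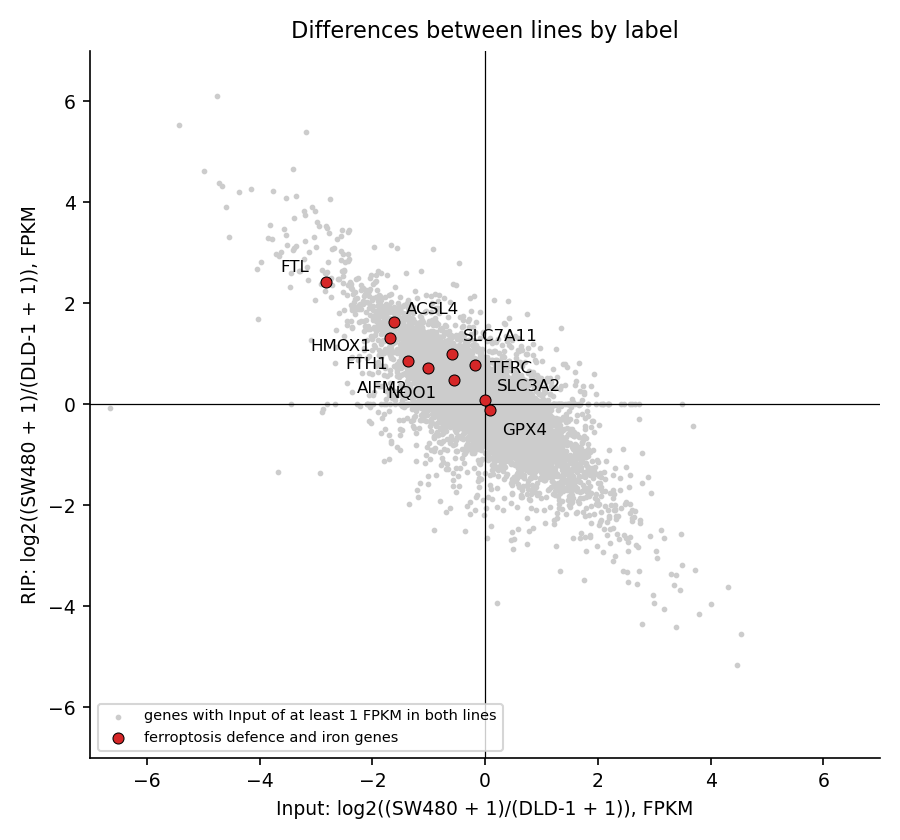
Difference between lines in the Inputs (x axis) and in the RIP libraries (y axis), each as log2((SW480 + 1)/(DLD-1 + 1)) of FPKM by label, for the 12324 genes with an Input of at least 1 FPKM in both lines (grey) and the 10 genes (red). FTL lies at -2.82 and 2.42, and the cloud of all genes runs along the same falling diagonal.

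The pattern of each gene over the 4 RIP-table libraries was set against 10350 protein-coding genes by the Euclidean distance of log2(FPKM + 1) values centred on each gene's own mean. Closest to FTL was CDKN1A at a distance of 0.132, to FTH1 ATP6V1D at 0.0964 and to ACSL4 TXNRD1, a thioredoxin reductase, at 0.0560. AIFM2 was closest to ZNF165 (0.0347), GPX4 to AADAT (0.0226), SLC7A11 to ATP13A3 (0.0685) and SLC3A2 to WDR24 (0.0333). TFRC was closest to ZMYND11 (0.0817), NQO1 to DESI2 (0.0177) and HMOX1 to COPZ2 (0.0978). No gene of the set was the nearest of another: the closest such pair by rank was FTL and ACSL4, which ranked 50 among the genes near FTL at a distance of 1.05. The distances rest on 4 libraries of 2 lines.

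The wider pathway held 58 further genes in 5 lists, of which 50 had an Input of at least 1 FPKM in both lines. As labelled, 21 of the 50 were at least 2-fold above Input in SW480 (15.6% of all genes) and 4 below (16.0%), and in DLD-1 6 were above (15.1%) and 7 below (19.2%). Their medians were 0.70 and 0.16. Crossed, 7 of the 50 were above (9.24%) and 1 below (11.7%) in RIP SW480, and 7 above (9.36%) and 1 below (11.8%) in RIP DLD-1, with medians of 0.32 and 0.32. The same direction in both lines at 2-fold was seen for 3 of the 50 genes above Input (3.55% of all genes) and 1 below (7.29%). COQ2, which attaches the side chain in coenzyme Q synthesis, had log2 ratios of 1.12 in SW480 and 2.24 in DLD-1, and 2.09 and 1.27 crossed. LPCAT3, which puts polyunsaturated fatty acids into phospholipids, had 1.76 and 2.53, and 2.62 and 1.67 crossed, but its Input differed between the tables and the ratios over the acRIP-table Inputs were -0.02 and 0.10. CISD2, an iron-sulphur protein, had 2.60 and 2.06, and 2.29 and 2.37 crossed. TFR2, another transferrin receptor, had -1.42 and -1.09, and -1.03 and -1.48 crossed. COQ2 and CISD2 were also at least 2-fold above with each of the other Inputs, crossed or from the acRIP table, whereas TFR2 had -0.70 and -0.42 with same-label Inputs from the acRIP table.

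The counts of each list can be read against the shares of all genes just given. Of the glutathione and thioredoxin genes, 5 of the 9 that passed the Input minimum were at least 2-fold above Input in SW480 and 0 below, and in DLD-1 0 were above and 1 below. Crossed, 0 of the 9 were past 2-fold either way in RIP SW480 or in RIP DLD-1. CTH, which makes cysteine, had the highest mean ratio of that list (1.39 and 0.45, crossed 0.97 and 0.86). GSS, the glutathione synthase, was at 0.77 and -0.94, and at 0.06 and -0.24 crossed. CBS did not pass the minimum. Of the lipid peroxidation and membrane genes, 7 of 10 were above in SW480 and none below, against 1 above and 3 below in DLD-1. Crossed, 2 were above and 0 below in each RIP library. AGPAT3 was at the low end (-0.23 and -1.32, crossed -0.80 and -0.75). ALOX5, ALOX12 and ALOX15, lipoxygenases, did not pass.

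Iron transport genes lay on both sides of Input. Of 15 that passed, 3 were above and 2 below in SW480, and 3 were above and 1 below in DLD-1, and crossed it was 3 above and 1 below in each. FTMT, HAMP, SLC40A1 and TF, which include the iron exporter and transferrin itself, were below the minimum. The 6 coenzyme Q and tetrahydrobiopterin genes had 2 above and 1 below in SW480 and 1 above and 0 below in DLD-1, and crossed 1 above in RIP SW480 and 2 in RIP DLD-1 with 0 below. SPR was lowest by mean (-0.52 and -0.41, crossed -0.58 and -0.34). Of the 10 NRF2 and stress regulators, 4 were above and 1 below in SW480, and 1 above and 2 below in DLD-1, and crossed 1 was above in RIP SW480 and none was past 2-fold in RIP DLD-1. BACH1, a repressor of HMOX1 and ferritin genes, had ratios of 1.17 and 0.94, and 1.19 and 0.92 crossed. ATF4, an activator of SLC7A11, had -1.04 and -0.03, and -0.61 and -0.46 crossed.

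Between lines, 9 of the 50 wider genes were at least 2-fold higher in Input DLD-1 (9.29% of all genes) and 1, DHODH, in Input SW480 (7.25%). In RIP, 11 were at least 2-fold higher in SW480 (7.60%) and 1, CHAC1, in DLD-1 (6.17%). FADS1 and SQSTM1, chosen after their values were seen, were high in RIP SW480 and Input DLD-1, as FTL was. FADS1, a fatty acid desaturase, was at 38.6 FPKM in RIP SW480, 2.16 in Input SW480, 1.11 in RIP DLD-1 and 41.8 in Input DLD-1. SQSTM1, an autophagy receptor, was at 978, 111, 159.5 and 802 FPKM in the same order.

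Lastly, ac4C peaks on the 10 genes were taken from the lists deposited for each line, whose fold is the listed enrichment of acRIP over Input. In SW480 7 of the 10 genes held 19 peaks, and in DLD-1 5 of the 10 held 16. Of all genes with an acRIP-table Input of at least 1 FPKM, 39.5% held a peak in SW480 and 41.7% in DLD-1, and of those with at least 10 FPKM 59.1% and 63.8%. ACSL4, GPX4, NQO1, SLC3A2 and TFRC held peaks in both lines, as 35.7% of genes expressed in both did. With only the peaks at or above the median fold of their list, 4 genes held one in SW480 (24.3% of genes) and 5 in DLD-1 (27.5%). FTH1 and FTL held peaks in the SW480 list only. AIFM2, SLC7A11 and HMOX1 held none in either line or in the list called on the pooled libraries, which had 15 peaks on 6 of the genes. The depth of the acRIP libraries is unknown, so a missing peak does not show that the mark is absent.

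GPX4 was the one gene with peaks at identical positions in both lists. The longer one, at chr19:1106214-1106761 (GRCh38, plus strand), covered 357 bases in 3 blocks annotated as exon, ended 18 bases before the end of the gene and had a fold of 244 in SW480 and 55.2 in DLD-1. The shorter one, at chr19:1105739-1105947, covered 209 exonic bases with folds of 4.79 and 7.41. They held 2 sites and 1 site of the authors' ac4C motif. Similar GPX4 Inputs in the 2 lines (240.1 and 211 FPKM in the acRIP table) lay beside a listed fold that was higher in SW480 for the first peak and in DLD-1 for the second.

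NQO1 held its strongest peak in the 3′-UTR, at chr16:69709428-69709935 (minus strand) with a fold of 310 in SW480 and at chr16:69709458-69710263 with a fold of 70.0 in DLD-1, the latter with 4 motif sites. A second peak in the coding sequence, over 4 blocks, had folds of 69.9 and 8.58. SLC3A2 had only coding-sequence peaks, 2 in SW480 and 5 in DLD-1. The peak at its 3′ end, chr11:62888336-62888845 (plus strand) in SW480 and chr11:62888194-62888845 in DLD-1, had folds of 37.9 and 6.01, and the next one upstream, which also overlapped between lists, had 20.9 and 37.0. The order of the lines by fold thus changed from one SLC3A2 peak to the other.

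TFRC, whose 3′-UTR is known for its iron-responsive elements, held 6 peaks in SW480 and 3 in DLD-1. The peak of highest fold in SW480 lay in the 3′-UTR at chr3:196049296-196050046 (minus strand, fold 98.9, no motif site). In DLD-1 it was a peak of 3029 bases in 3 blocks at chr3:196049596-196055378 with a fold of 246, which overlapped 451 bases of the former. ACSL4 held 3 peaks in SW480, the highest with a fold of 18.2 in the coding sequence, and 4 in DLD-1, the highest with a fold of 40.1 over exons. One ACSL4 peak in SW480, at chrX:109661594-109663339, had a listed false discovery rate above 0.05.

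The ferritin peaks had lower folds than the highest peak of each of the other 5 genes. In SW480 FTL held 1 peak, at chr19:48965841-48966878 (plus strand), of 498 bases in 3 blocks annotated as coding sequence with a fold of 7.87 and 3 motif sites. On the genome it began 482 bases beyond the stretch with the CAGTGT letters, and the distance along the mRNA was not computed. FTH1 held 1 in the coding sequence, at chr11:61965418-61967097 (minus strand) with a fold of 13.2, and 1 in the 5′-UTR, at chr11:61967391-61967570 with a fold of 1.33 and 8 motif sites, the most of any peak in the set. The SW480 Input, over which these peaks were listed, held 365 FPKM of FTL and 934 of FTH1 in the acRIP table, against 2896 and 2361 in the DLD-1 Input, where no peak was listed. In the pooled list FTL kept 1 peak with a fold of 1.5 and FTH1 none. The part of the Input level in these calls was not tested. Whether the acRIP libraries match their Input by label could be checked only through the peak lists. Of the 199 genes with at least 5 FPKM in Input DLD-1 and under 0.1 FPKM in Input SW480 by both tables, 24 held a peak in the SW480 list and 17 in the DLD-1 list, and of the 135 genes with the reverse pattern 4 held a peak in the SW480 list and 8 in the DLD-1 list.

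**Figure D4:**
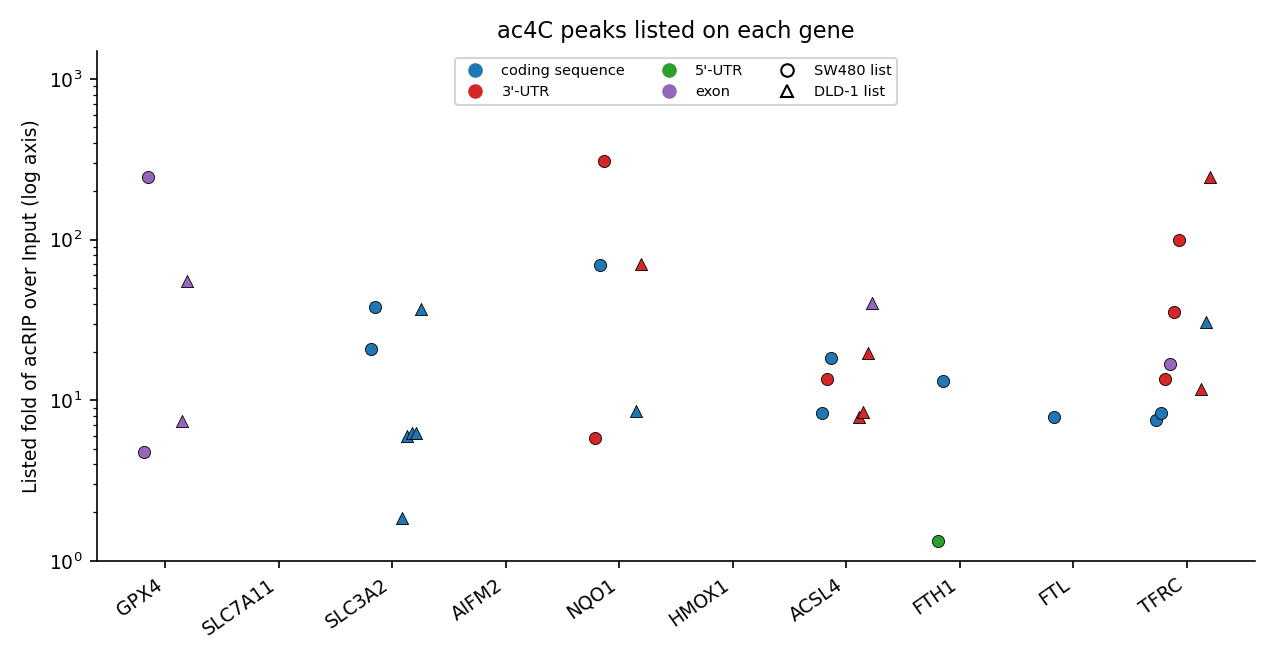
Listed fold of acRIP over Input (log axis) for each ac4C peak on the 10 genes, in SW480 (circles) and DLD-1 (triangles), coloured by the annotated part of the transcript, with 1 point per peak. The highest points are the 3′-UTR peak of NQO1 (310) and the exonic peak of GPX4 (244) in SW480 and the 3′-UTR peak of TFRC (246) in DLD-1, and no point is drawn for AIFM2, SLC7A11 and HMOX1.

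Across the set, the median fold of the peaks was 13.5 in SW480, where the list's was 19.5, and 10.19 in DLD-1, where it was 14.6. A motif site lay in 9 of 19 and 8 of 16 peaks, beside 56.2% and 55.1% of the lists. In SW480 9 of the 19 were annotated as coding sequence and 6 as 3′-UTR, where the list had 24.3% and 53.0%, and in DLD-1 7 and 6 of the 16, where it had 38.4% and 41.5%. Peaks of the same gene are not independent: TFRC held 6 of the 19 in SW480, and SLC3A2 held 5 of the 7 coding-sequence peaks in DLD-1. Of the 19 peaks in SW480 12 overlapped a peak of the other line by at least 1 base on the same strand, and of the 16 in DLD-1 9 did. The share of overlapping peaks in the whole lists was not computed, so these counts do not set the 10 genes apart. Several TFRC peaks in SW480 overlapped the same long DLD-1 peak, and the ACSL4 peak with a false discovery rate above 0.05 was among the 12. Of the 50 wider-pathway genes, 29 held a peak in SW480, 27 in DLD-1 and 20 in both, where 39.5%, 41.7% and 35.7% of genes with an Input of at least 1 FPKM did. The share rose with level, to 59.1% in SW480 and 63.8% in DLD-1 at 10 FPKM, and the 50 genes were not matched for level. SLC7A11, which lay above both RIP-table Inputs in both RIP libraries, had no listed peak, and GPX4, with the second highest fold in SW480, had levels in RIP within 1.09-fold of Input.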

How the data were processed

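For RIP-seq, the authors deposited FPKM values per Ensembl gene for the RIP and Input libraries, processed by a sequencing provider. HISAT2 2.1.0, cutadapt 2.5, the human builds GRCh38 and hg38 and the mouse build GRCm38 stand in the submitters' processing notes without roles, and strand use in counting is not given in the sources used here. The study's text names an IgG control, whereas table and labels name Input. A second deposited table gives Input values read here as FPKM. They were assigned to the same Input sample of each line, so its values are not replicates. The 3 peak lists, per library and pooled, hold a p-value, its base-10 logarithm and that of the false discovery rate (FDR), a fold (ratio of acRIP to Input) and counts of motif sites made by the authors, and FDR cells lost to spreadsheet errors were read as passed. The 3 columns of the authors' own RIP/Input comparison were not used. Peak starts count from 0 (22 starts equal a RefSeq gene start after 1 is added, and 3 with nothing added), so 1 was added.

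Samples were grouped by their titles. Ratios are log2((FPKM + 1)/(FPKM + 1)), which makes changes of low genes look smaller than they were. A gene was called past 2-fold among genes whose Inputs reached 1 FPKM in both lines, and percentages of all genes for levels and ratios are over the 12324 that passed. Shares of genes holding a peak are over genes with an acRIP-table Input of at least 1 FPKM. These numbered 14272 in SW480, 15125 in DLD-1 and 11980 in both. Columns kept whole-number steps, from which the smallest whole reads were solved for 23513 of 23515 genes above 0 in at least 2 columns. The solved reads summed to 27388958 (RIP SW480), 13143596 (Input SW480), 23045054 (RIP DLD-1) and 12125181 (Input DLD-1). Errors are from the delta method, cover counting error only and are upper limits. On simulated data, 99.9% of solved genes gave the smallest whole reads. The acRIP-table Inputs were multiplied by 1.48 and 1.52 to bring them to the median of the RIP-table Inputs for ratios of RIP to Input. Peaks overlapped block by block on the same strand. Promoter windows and gene positions came from RefSeq (GRCh38.p14), and no genome sequence was used.

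All 10 genes were named. In each wider list the genes with the highest and lowest mean of both labelled ratios, and genes past 2-fold in the same direction in both lines, were named, and for likeness the nearest gene. The 10 genes and the lists were chosen with earlier results of these data known. Alternatives were pseudocounts of 0.1 and 5, Input minimums, centring on protein-coding genes, other Inputs, an FDR under 0.05, a fold at or above the list median and an overlap of at least 50% of each peak. Python 3.11.15, pandas 2.3.3, numpy 2.4.6 and matplotlib 3.10.9 were used.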

Additional observations from a re-analysis of the deposited data

Results flagged for a closer look

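For 7 of the 10 genes the RIP library lay on one side of its Input in SW480 and on the other in DLD-1, as labelled. Of the 12324 genes, 43.6% did so. The difference between lines was not tested, since each group held 1 library. The log2 ratios in SW480 and DLD-1 were 3.68 and -1.56 for FTL, 1.99 and -0.24 for FTH1, 2.44 and -0.80 for ACSL4, 1.04 and -1.96 for HMOX1, 1.24 and -0.49 for AIFM2, and 0.88 and -0.16 for NQO1. GPX4 was also on opposite sides, at -0.13 and 0.08, but both values are small. Over the Inputs of the other label, none of the 7 lay on opposite sides, where 18.3% of all genes did.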

How the results depend on the processing

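The labels carry no replicate numbers to pair, and a fit of RIP against Input with the line as a block, which would take the 2 lines as replicates, was not run. The choice of Input changed most. Over the Input of the other label in the RIP table and in the acRIP table, HMOX1 in SW480 turned from 1.04 to -0.65 and -0.25, and FTL in DLD-1 from -1.56 to 1.26 and 1.65. The same 2 Inputs moved the median ratio of the 10 genes in SW480 from 1.14 to 0.60 and 0.71 and in DLD-1 from -0.20 to 0.51 and 0.23, the genes at least 2-fold above Input in SW480 from 7 to 1 and 3 and in DLD-1 from 0 to 2 and 3, and those at least 2-fold below in DLD-1 from 2 to 0 and 0. With the acRIP-table Input of the same label the median in SW480 was 1.39 and 1 gene was above Input in DLD-1. A pseudocount of 5 and centring on protein-coding genes each gave a median in SW480 of 0.96.

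Of genes holding peaks in SW480, 4 of 7 had one with a fold at or above the list's median. Of the 12 overlapping peaks in SW480, 6 overlapped by at least 50% of each. The share of genes holding a peak in DLD-1 was 41.7% at an Input of at least 1 FPKM and 63.8% at 10 FPKM. Differences between lines within the Inputs kept their counts at 2-fold with both tables, whose Inputs were assigned to the same sample of each line. The small differences of SLC3A2 and TFRC changed sign, from -0.01 and -0.17 to 0.21 and 0.13. Depth limits the acRIP results, because neither the reads of those libraries nor the spread between cultures is known.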
